A study of Homo sapiens with 18 samples.

Results

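Tamoxifen was compared with vehicle in RWPE1 cells that stably carried the neutral MACC, the construct with a DNA-binding domain and no effector domain. RWPE1 is an established line of benign human prostate epithelial cells. In the neutral construct a domain that binds DNA at androgen response elements (AREs) is fused to the tamoxifen-binding ERT2 domain and a 3X FLAG epitope tag. The samples were chosen by their labels as the 3 libraries of the neutral line with tamoxifen and its 3 libraries with vehicle, 6 of the 18 libraries in the series. Cells of both groups carried the same construct, delivered by lentivirus on a PGK backbone and kept as a blasticidin-selected pool, and were treated for 48 h. Tamoxifen was given at a dose stated as 1.5 uM in one label and 1.25 uM in another, and vehicle was ethanol. The other 12 libraries came from lines with a repressive construct (KRAB domain) or an activating construct (VP64 domain), treated in the same way. The neutral line was not compared here with RWPE1 cells that lack a construct, so an effect of tamoxifen itself and an effect of moving the construct into the nucleus cannot be told apart.

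Tamoxifen is a selective modulator of the estrogen receptor, and the mutated ERT2 domain binds its active metabolite and not estradiol, which lets a fusion protein enter the nucleus when the drug is given. AREs are paired hexamers that steroid receptors such as the glucocorticoid receptor bind. In many cells tamoxifen is known to act without the estrogen receptor, as a cationic amphiphilic drug that collects in lysosomes and inhibits late steps of cholesterol synthesis. Basal prostate epithelial cells are marked by keratins 5 and 14 and are anchored to the basement membrane by hemidesmosomes, whose receptor is the integrin made of ITGA6 and ITGB4.

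Each library of the neutral line held between 713521 and 769051 counts at 10817 to 11084 genes. At this depth a row with a count of 0 in a library could still have a level of up to 3.90 to 4.20 CPM. CPM are counts scaled to library size, and the limit takes a floor of 3 counts and counting error only. It applies to the row as counted, and not to a gene whose reads the counting did not place at its row. Rows of genes with an exon overlap on the opposite strand made up 23.0% of the rows placed on the annotation and held 89.0% of their counts. In the mitochondrial genome, MT-ND6, the protein-coding gene of the opposite strand, held 26094 counts over the 6 libraries, and the other 20 mitochondrial rows with a count held 8298 together. The kit keeps the strand, but the strand setting of the counting is not stated, so reads of a row and of the gene opposite to it cannot be told apart. For a row without an opposite gene, counts of its own and of the opposite strand cannot be told apart either. The opposite gene is named beside most of the changed rows described. No batch is given in the labels, and the first principal component of the 6 libraries (26.4% of the variance over 500 genes) did not separate the groups, since vehicle replicate 2 lay at 1.63, above tamoxifen replicate 2 at 0.95.

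Rows of basal keratins and rows opposite luminal keratins both held many counts. KRT5 held 721 to 1135 counts per library, KRT14 held 435 to 706 and KRT17 held 551 to 886, while KRT15 held 18 to 44, TP63, the basal transcription factor, 4 to 25 and DSG3, a desmosomal cadherin, 1 to 5. The summed rows of the 24 basal genes held 2518 to 3328 counts with vehicle and 3351 to 3675 with tamoxifen. The luminal row KRT8, opposite KRT18, held 572 to 712, and the summed rows opposite the luminal genes held 2463 to 2609 with vehicle and 2535 to 2684 with tamoxifen. KLK3 and ACPP, secretory luminal genes, were at 0 in all 6 libraries, and HOXB13 did not exceed 1. Of the fibroblast markers, COL1A2, COL3A1, DCN, LUM and PDGFRB were at 0 and COL1A1 held 1 to 8 counts. The summed rows of the 11 fibroblast markers held 91 to 112 counts with vehicle and 108 to 113 with tamoxifen, nearly all at VIM. The rows opposite them held 6998 to 7210 with vehicle and 6546 to 7426 with tamoxifen, nearly all at VIM-AS1 and RP11-124N14.3, both opposite VIM. Of the leukocyte, endothelial and neuroendocrine markers checked, PTPRC, CD3E, VWF, CDH5 and SYP were at 0, CD14 held up to 3 counts and CHGA up to 1. ESR1, from which ERT2 is derived, had 62, 65 and 43 counts with vehicle and 64, 27 and 42 with tamoxifen, with overlapping groups. ZNF10, a source of KRAB domains, was at 0 in all 6. Reads of the construct and of the endogenous gene cannot be told apart at the ESR1 row.

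Few genes passed the test of tamoxifen against vehicle in the neutral line. Of 5816 genes tested, 45 passed an adjusted p of 0.05 (0.774% of those tested), 19 higher (0.327%) and 26 lower (0.447%). Only 1193 of the 5816 had an adjusted p in DESeq2, and the others could not be called. The shares of all tested genes that were called are thus lower than the shares of genes that could be called. At an unadjusted p under 0.05 there were 451 genes, 7.75% of those tested. The median absolute log2 fold change of the 45 was 0.54, and only TBPL1 and SPHK2 exceeded 1. For each of the 45 the values of the vehicle and tamoxifen libraries did not overlap, as was the case for 772 of all tested genes (13.3%). In bulk RNA, a change in RNA per cell and a change in the share of cells that make it cannot be told apart. The labels call the libraries biological replicates without naming separate cultures, so p-values measure the spread between samples of this series. The spread of each gene within groups (its dispersion) was estimated over all 18 libraries, and not from the 6 neutral libraries alone. A fit to those 6 gave an adjusted p to 291 genes and called 60, of which 25 were among the 45.

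**Figure D1:**
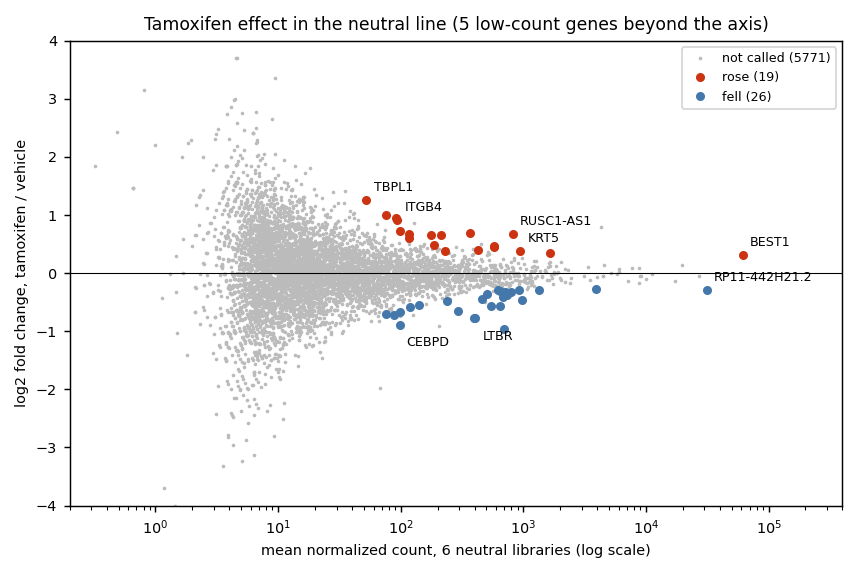
Mean normalized count over the 6 neutral libraries (log scale) against the log2 fold change of tamoxifen over vehicle for the 5816 tested genes, with the 19 that rose in red and the 26 that fell in blue. The called genes lie at means of 52.6 and above, and most lie within 1 log2 unit of 0.

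The SE was larger at genes with low counts. The median SE of the log2 fold change was 0.70 for the 3286 genes with a mean under 20 normalized counts, 0.38 between 20 and 50, 0.23 between 50 and 200, 0.13 between 200 and 1000 and 0.075 above 1000. No gene under a mean of 50 was called, whereas 15, 25 and 5 genes were called in the 3 upper bins. Independent filtering in DESeq2 gave an adjusted p to 1193 of the 5816 genes, those with a mean of at least 66.6 normalized counts over the 18 libraries, and the others could not be called whatever their SE.

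**Figure D2:**
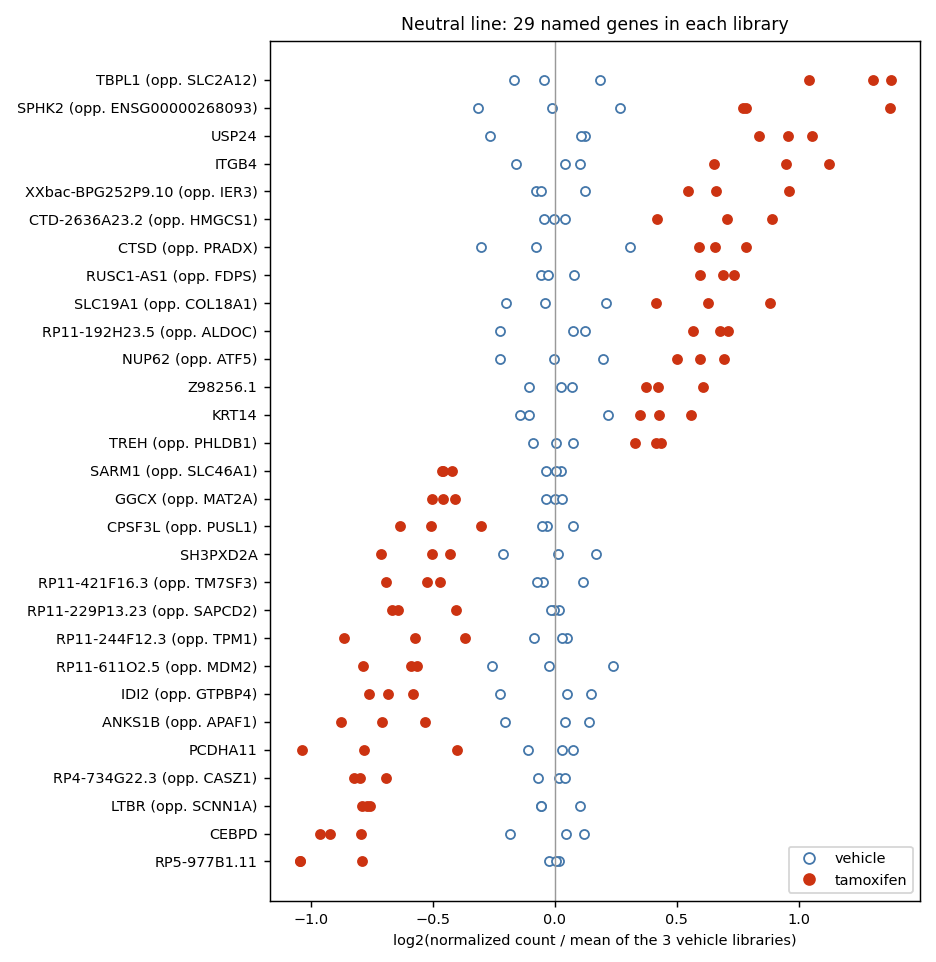
Log2 of the normalized count over the mean of the 3 vehicle libraries (horizontal axis) in each library for 14 of the 15 genes that rose most and the 15 that fell most, with vehicle as open and tamoxifen as filled circles. The gene on the opposite strand is given in brackets. No tamoxifen library lies within the range of the vehicle libraries for any of the 29 genes shown.

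Rows opposite enzymes of the mevalonate pathway rose. The pathway makes the isoprenoid precursors of cholesterol, and its genes are controlled by the sterol-sensing factors SREBF1 and SREBF2. RUSC1-AS1 (chr1:155286654-155293967, GRCh37, minus strand), a long non-coding RNA opposite FDPS, which makes farnesyl diphosphate, had 607, 666 and 619.7 normalized counts with vehicle and 954, 1050.2 and 1019 with tamoxifen. The 3 tamoxifen values all stood above the highest vehicle value (log2 fold change 0.68, SE 0.11, adjusted p = 8.40e-08). CTD-2636A23.2 (chr5:43287703-43290941, plus strand), opposite HMGCS1, the cytosolic HMG-CoA synthase, had 282, 292 and 275 normalized counts with vehicle and 524, 462 and 379 with tamoxifen. The vehicle libraries agreed closely here and the tamoxifen libraries spread more widely, without overlap (log2 fold change 0.69, SE 0.14, adjusted p = 6.22e-05). Both calls held in each of the 6 fits that left out 1 library. All 8 tested rows opposite a gene of the cholesterol list were above 0. Their median log2 fold change was 0.59, beside 0.0048 over all tested genes. An adjusted p was given to 5 of the 8, and 2 passed, beside 0.327% of all tested genes called higher. The row opposite ACAT2, TCP1, had a log2 change of 0.51 (adjusted p = 0.193) and that opposite IDI1, IDI2-AS1, of 0.42 (adjusted p = 0.201), and neither passed. Of the 13 tested rows of the list's own genes, 10 were above 0 with a median of 0.35, and none passed in DESeq2, edgeR or limma-voom (2 had an adjusted p and 2 an unadjusted p under 0.05), beside 0.774% of all tested genes. SREBF1, the highest of them, had 96.4 ± 8.26 with vehicle and 123 ± 11.7 with tamoxifen (SD, n = 3 each) and a log2 fold change of 0.35 (adjusted p = 0.295). The summed counts of the rows opposite the list were 1477 to 1625 with vehicle and 2241 to 2483 with tamoxifen.

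Basal keratins and a hemidesmosome integrin rose. KRT5 (chr12:52908359-52914314, minus strand) had 750.5, 759 and 948 normalized counts with vehicle and 1094, 953 and 1138 with tamoxifen. Vehicle replicate 3 came within 5 counts of tamoxifen replicate 2, but the groups did not overlap (log2 fold change 0.37, SE 0.11, adjusted p = 0.0356). KRT14 (chr17:39738531-39743147, minus strand), the partner keratin of KRT5, had 453, 441 and 567 normalized counts with vehicle and 655, 621 and 718 with tamoxifen. Its vehicle replicate 3 was again the highest of its group (log2 fold change 0.45, SE 0.13, adjusted p = 0.0248). ITGB4 (chr17:73717408-73753899, plus strand), the hemidesmosomal integrin subunit, had 69.7, 67.0 and 58.1 normalized counts with vehicle and 125, 102 and 141 with tamoxifen. Each tamoxifen library stood well above each vehicle library (log2 fold change 0.92, SE 0.23, adjusted p = 0.00458). These 3 rows have no overlapping gene on the opposite strand, which does not show the strand of their reads. Of the 21 tested basal genes 14 were above 0, with a median log2 fold change of 0.24. An adjusted p was given to 7 of the 21. KRT5 and KRT14 were the 2 that passed, beside 0.327% of all tested genes called higher. KRT17 stood at a log2 change of 0.19 (adjusted p = 0.515) and PKP1, a desmosomal plaque protein, at -0.17 (adjusted p = 0.752). Of the 14 tested hemidesmosome and laminin genes 13 were above 0, with a median of 0.40. Only 4 of the 14 had an adjusted p, and ITGB4 alone passed, beside the same 0.327% of all tested genes. COL17A1, the hemidesmosomal collagen, stood at a log2 change of 0.48 (adjusted p = 0.10), PLEC, which links hemidesmosomes to keratin, at 0.02 (adjusted p = 0.975) and LAMA5 at 0.01 (adjusted p = 0.978). Without tamoxifen replicate 3 the adjusted p of ITGB4 was 0.0668, and that of KRT5 reached 0.274 and that of KRT14 0.244 without vehicle replicate 2. The KRT5 call was lost in 4 and the KRT14 call in 5 of the 6 fits that left out 1 library. In edgeR's quasi-likelihood test the adjusted p was 0.0358 for ITGB4, 0.180 for KRT5 and 0.134 for KRT14. In limma-voom it was 0.137, 0.138 and 0.148, so that none of these rows passed there.

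The luminal keratin row KRT8, opposite KRT18, lay just outside the threshold. It had 736, 657 and 701 normalized counts with vehicle and 604, 557 and 583 with tamoxifen, with all tamoxifen values below the vehicle values (log2 fold change -0.26, SE 0.09, adjusted p = 0.0501). Beside it outside the threshold were PPAP2A, opposite MTREX, with an adjusted p of 0.0501 and ZSWIM8-AS1 with 0.0506. Just inside it were RP11-552F3.9, opposite the ubiquitin ligase gene TRIM47, with 0.0483 and EIF2AK1, opposite AIMP2, with 0.04998. None of the 10 tested luminal rows or the 7 rows opposite luminal genes passed in DESeq2, edgeR or limma-voom. Of the 10 luminal rows 7 were above 0, with a median log2 fold change of 0.30. Of the 7 rows opposite luminal genes 2 were above 0, with a median of -0.26. Only 2 of the 10 and 2 of the 7 had an adjusted p in DESeq2, and the others could not be called there. At an unadjusted p under 0.05 in DESeq2 there were 1 and 2 of these rows. RP3-416H24.1, opposite KRT7, stood at a log2 change of 0.12 (adjusted p = 0.403).

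Rows opposite ion and sugar transporter genes changed in both directions. TBPL1 (chr6:134273308-134311570, plus strand), a relative of the TATA-binding protein, lies opposite SLC2A12, which encodes a glucose transporter. It had 30.2, 27.7 and 35.5 normalized counts with vehicle and 80.9, 77.0 and 64.1 with tamoxifen, with every tamoxifen library at more than 2 times the vehicle mean (log2 fold change 1.25, SE 0.27, adjusted p = 0.000393). LTBR (chr12:6484211-6500737, plus strand), the lymphotoxin beta receptor, lies opposite SCNN1A, which encodes the alpha subunit of the epithelial sodium channel. It had 549.6, 493 and 492 normalized counts with vehicle and 296, 300.1 and 302 with tamoxifen. The tamoxifen libraries lay within 7 normalized counts of each other and far below the vehicle libraries (log2 fold change -0.77, SE 0.10, adjusted p = 5.14e-12). The rows of SCNN1A and of SLC2A12 had means of 8.83 and 13.8 counts over the 6 libraries and gave no adjusted p. Of 7 tested rows opposite the ion transport list, 3 rose and 1 fell, beside 0.327% and 0.447% of all tested genes. An adjusted p was given to 5 of the 7 rows opposite the list. Of its 9 own rows, 2 of them with an adjusted p, none passed in DESeq2, edgeR or limma-voom (1 at an unadjusted p under 0.05).

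The highest row of the libraries rose with tamoxifen. BEST1 (chr11:61717535-61732987, plus strand), named for a chloride channel, lies opposite FTH1, the heavy chain of the iron store ferritin. It had 55580.2, 55035 and 53632 normalized counts with vehicle and 69469.7, 70590.1 and 64958 with tamoxifen (log2 fold change 0.32, SE 0.08, adjusted p = 0.00289). It made up 7.33% to 7.58% of all counts with vehicle and 8.95% to 9.50% with tamoxifen, without overlap. The row of FTH1 itself had 239.5 ± 51.1 with vehicle and 326 ± 17.6 with tamoxifen (SD, n = 3 each) and a log2 fold change of 0.44 (adjusted p = 0.0741). RP11-442H21.2, a row that was not placed on the annotation, fell. It had 35514, 33115 and 35091 normalized counts with vehicle and 27857, 28426 and 28444 with tamoxifen, so that all tamoxifen values lay well below the vehicle values (log2 fold change -0.29, SE 0.04, adjusted p = 7.74e-09). The oxidative stress and iron list had 1 call among 5 rows opposite its genes, the row of BEST1, and none among 10 own rows. An adjusted p was given to 3 of the 5 and 2 of the 10. Of all tested genes, 0.327% were called higher. Scaling each library to its total count in place of the median of ratios moved the median of all genes by -0.0019 on the log2 scale, and all 45 calls held under it.

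CTSD was the only gene called among the own rows of lysosomal and estrogen-responsive genes. CTSD (chr11:1773982-1785803, minus strand), the lysosomal protease cathepsin D and a known estrogen target, lies opposite the long non-coding RNA gene PRADX. It had 72.9, 85.1 and 111 normalized counts with vehicle and 142, 135 and 155 with tamoxifen. Vehicle replicate 3 was the closest to the tamoxifen group (log2 fold change 0.68, SE 0.20, adjusted p = 0.0227). The call was lost in 5 of the 6 fits without 1 library, with an adjusted p of up to 0.219. The median was -0.18 over the 12 lysosomal rows tested, of which 4 had an adjusted p, and -0.34 over the 10 estrogen-responsive rows, of which 1 had. CTSD made 1 call in each list, beside 0.327% of all tested genes called higher. GREB1, PGR and TFF1, classical estrogen receptor targets, were at 0 in all 6 libraries. C5orf45, opposite the autophagy receptor gene SQSTM1, stood at a log2 change of -0.18 (adjusted p = 0.295). NUP62, opposite the stress factor gene ATF5, and XXbac-BPG252P9.10, opposite the immediate early gene IER3, rose. Their log2 fold changes were 0.60 (adjusted p = 0.0453) and 0.73 (adjusted p = 0.0141). They were 2 of 3 tested rows opposite stress genes, of which 2 had an adjusted p, beside the same 0.327% of all tested genes. Without 1 library the calls were lost in 5 and 3 of the 6 fits, and edgeR gave an adjusted p of 0.271 and 0.133. IER3 also belongs to the NF-kB list, in which LTBR fell. Of 14 tested stress genes, 3 of them with an adjusted p, none passed in DESeq2, edgeR or limma-voom (3 at an unadjusted p under 0.05), and HSPA5, an endoplasmic reticulum chaperone, had 53.9 ± 12.8 with vehicle and 32.6 ± 9.77 with tamoxifen (SD, n = 3 each) with no adjusted p.

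Among androgen and glucocorticoid response genes CEBPD fell. CEBPD (chr8:48649475-48650726, minus strand) encodes a transcription factor induced by glucocorticoids and cytokines and has no gene on the opposite strand. It had 131, 112 and 138 normalized counts with vehicle and 73.2, 65.3 and 67.2 with tamoxifen, so that each tamoxifen value lay below each vehicle value (log2 fold change -0.89, SE 0.24, adjusted p = 0.00903). The call was lost in 3 of the 6 fits that left out 1 library (adjusted p up to 0.102), and edgeR gave 0.0514. CEBPD was the only call among 14 tested rows of the list, whose median was 0.27, beside 0.447% of all tested genes called lower. Of the 14 rows, 4 had an adjusted p and 6 an unadjusted p under 0.05. HERC3 stood at a log2 change of -0.15 (adjusted p = 0.326), CEBPB at 0.42 (adjusted p = 0.0859) and NDRG1 at 0.30 (adjusted p = 0.625). FKBP5, a known glucocorticoid receptor target, had 26, 38 and 29 counts with vehicle and 15, 12 and 24 with tamoxifen. KLK2 and KLK3 were at 0 in every library, and TMPRSS2 did not exceed 2 counts.

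Other rows also rose. USP24 (chr1:55532032-55681051, minus strand), a deubiquitinase with no gene on the opposite strand, had 67.7, 51.6 and 67.0 normalized counts with vehicle and 120.4, 111 and 129 with tamoxifen. Its groups were far apart (log2 fold change 0.95, SE 0.20, adjusted p = 0.000327). SPHK2 (chr19:49122548-49133974, plus strand), a sphingosine kinase, lies opposite a gene with no symbol and had 60.4, 49.7 and 40.4 normalized counts with vehicle and 130.1, 85.7 and 86.5 with tamoxifen. Tamoxifen replicate 1 was far above the other libraries (log2 fold change 1.01, SE 0.27, adjusted p = 0.00903). Without it the adjusted p was 0.183. SLC19A1 (chr21:46913486-46993279, minus strand), the reduced folate carrier, lies opposite the collagen gene COL18A1 and had 145, 192 and 162 normalized counts with vehicle and 257, 307 and 222 with tamoxifen. Its tamoxifen values spread widely above the vehicle values (log2 fold change 0.66, SE 0.16, adjusted p = 0.00261). RP11-192H23.5, opposite the aldolase gene ALDOC, TREH, the trehalase row opposite PHLDB1, and Z98256.1, which was not placed, rose with log2 fold changes of 0.65 (SE 0.18), 0.40 (SE 0.10) and 0.47 (SE 0.11).

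Promoters were searched for the letters of the ARE because the construct's DNA-binding domain recognises it. The half-sites AGAACA and TGTTCT, which are each other's reverse complement, were searched on both strands in the 250 bases before the start of each gene in RefSeq (GRCh38.p14). Of 27305 promoters, 12.4% held at least 1 half-site, and 1 held both set 3 bases apart as a full element (0.00366%). Of the 19 changed rows whose symbol matched a promoter, 3 held a half-site (15.8%), namely SPHK2, SLC19A1 and CYFIP1. Of 24 matched genes opposite to changed rows, GTPBP4 and NUDT3 held one (8.33%). None of these held a full element. The promoters of SPHK2 and SLC19A1 are shown as the windows of rows that rose with a half-site in them, read along each gene's strand, with the half-sites in capitals.
SPHK2 (chr19:48619256-48619505, plus strand): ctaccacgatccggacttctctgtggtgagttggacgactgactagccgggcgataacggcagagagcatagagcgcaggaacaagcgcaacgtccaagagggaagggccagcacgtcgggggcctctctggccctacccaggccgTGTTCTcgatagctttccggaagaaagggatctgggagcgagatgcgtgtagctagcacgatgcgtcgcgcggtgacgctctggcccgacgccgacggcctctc
SLC19A1 (chr21:45563026-45563275, minus strand): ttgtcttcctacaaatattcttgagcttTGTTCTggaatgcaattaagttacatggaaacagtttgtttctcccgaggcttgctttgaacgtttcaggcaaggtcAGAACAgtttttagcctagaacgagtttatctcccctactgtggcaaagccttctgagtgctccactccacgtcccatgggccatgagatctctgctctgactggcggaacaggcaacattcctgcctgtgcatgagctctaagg
In the SPHK2 window 1 half-site begins 104 bases before the start, and in the SLC19A1 window there are 2, the farther of which begins 222 bases before it. These matches describe letters in a window and were not tested for binding.

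The largest decrease among the called genes was at RP5-977B1.11, a row not placed on the annotation. It had 897, 922 and 913 normalized counts with vehicle and 442, 527 and 442 with tamoxifen. The tamoxifen libraries stood far below the vehicle libraries, which agreed closely (log2 fold change -0.95, SE 0.11, adjusted p = 4.59e-16). RP4-734G22.3 (chr1:10699298-10714390, plus strand), opposite the zinc finger factor gene CASZ1, had 477, 506 and 514 normalized counts with vehicle and 287, 283 and 309 with tamoxifen. The 2 groups were narrow and far apart (log2 fold change -0.77, SE 0.13, adjusted p = 3.17e-07). GGCX (chr2:85771843-85788655, minus strand), the vitamin K-dependent carboxylase opposite MAT2A, a methionine adenosyltransferase gene, had 1107, 1136 and 1159.6 normalized counts with vehicle and 826, 802 and 855 with tamoxifen. Its groups were separated by more than 250 normalized counts (log2 fold change -0.46, SE 0.08, adjusted p = 8.37e-06). SARM1, an NAD-cleaving enzyme opposite the folate transporter gene SLC46A1, had 544, 522 and 537 normalized counts with vehicle and 389, 388 and 399 with tamoxifen. Both groups were tight (log2 fold change -0.45, SE 0.10, adjusted p = 0.000615). RP11-421F16.3, opposite TM7SF3, and RP11-229P13.23, opposite SAPCD2, fell with log2 fold changes of -0.56 (SE 0.11) and -0.57 (SE 0.11). All of these calls held in each fit that left out 1 library.

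Other decreases included rows opposite cytoskeletal and cell death genes. RP11-611O2.5 (chr12:69235068-69237017, minus strand), opposite MDM2, the ubiquitin ligase of p53, had 352, 422 and 299.5 normalized counts with vehicle and 242, 238 and 208 with tamoxifen. Vehicle replicate 2 was the highest of the 6 (log2 fold change -0.64, SE 0.16, adjusted p = 0.00289), and the adjusted p was 0.118 without it. RP11-244F12.3, opposite the tropomyosin gene TPM1, and ANKS1B, opposite APAF1, the apoptosome scaffold, fell with log2 fold changes of -0.59 (SE 0.18) and -0.70 (SE 0.22). PCDHA11, a protocadherin whose last exons are shared by the PCDHA cluster, fell by 0.71 on the log2 scale (SE 0.22), and its reads may belong to other genes of the cluster. IDI2, opposite the ribosome assembly gene GTPBP4, CPSF3L, an Integrator subunit gene opposite PUSL1, and SH3PXD2A, an invadopodium scaffold, had log2 fold changes of -0.67 (SE 0.21), -0.48 (SE 0.13) and -0.54 (SE 0.17). The calls of IDI2 and EIF2AK1 were lost in all 6 fits that left out 1 library, and those of ANKS1B, SH3PXD2A, PCDHA11 and RP11-244F12.3 held in 1 of the 6. The 11 changed rows that fell with smaller changes had log2 fold changes from -0.41 at CYFIP1 to -0.28 at RP11-513I15.6.

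Most rows of the proliferation, interferon and differentiation lists had no adjusted p in DESeq2 and could not be called there. None of the 8 S phase and 11 G2/M genes tested in their own rows had one, nor the 2 rows opposite G2/M genes, and the 2 of 5 rows opposite S phase genes that had one did not pass. In edgeR and limma-voom, which gave each tested row an adjusted p, 0 of these passed, and 0 had an unadjusted p under 0.05 in DESeq2. ENOSF1, opposite the thymidylate synthase gene TYMS, stood at a log2 change of 0.21 (adjusted p = 0.342), and MKI67, the proliferation marker, had 34, 45 and 29 counts with vehicle and 24, 36 and 42 with tamoxifen. An adjusted p was given to 4 of 15 tested MYC-linked genes, 0 of 18 interferon response genes, 1 of 9 squamous differentiation genes and 0 of 3 aryl hydrocarbon response genes, and in rows opposite them to 1 of 6, 4 of 7, 3 of 4 and 1 of 4. None of these passed in DESeq2, edgeR or limma-voom. At an unadjusted p under 0.05 in DESeq2 there were 3 rows opposite interferon genes, and 2 own and 2 opposite rows of the squamous list. TAPSAR1, opposite the peptide transporter gene TAP1, stood at a log2 change of 0.24 (adjusted p = 0.236), and TSPAN31, opposite CDK4, at -0.08 (adjusted p = 0.746). CYP1A1, the main target of the aryl hydrocarbon receptor, had 2 counts in 1 library and 0 in the other 5. VIM-AS1, opposite VIM, stood at a log2 change of -0.02 (adjusted p = 0.927).

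**Figure D3:**
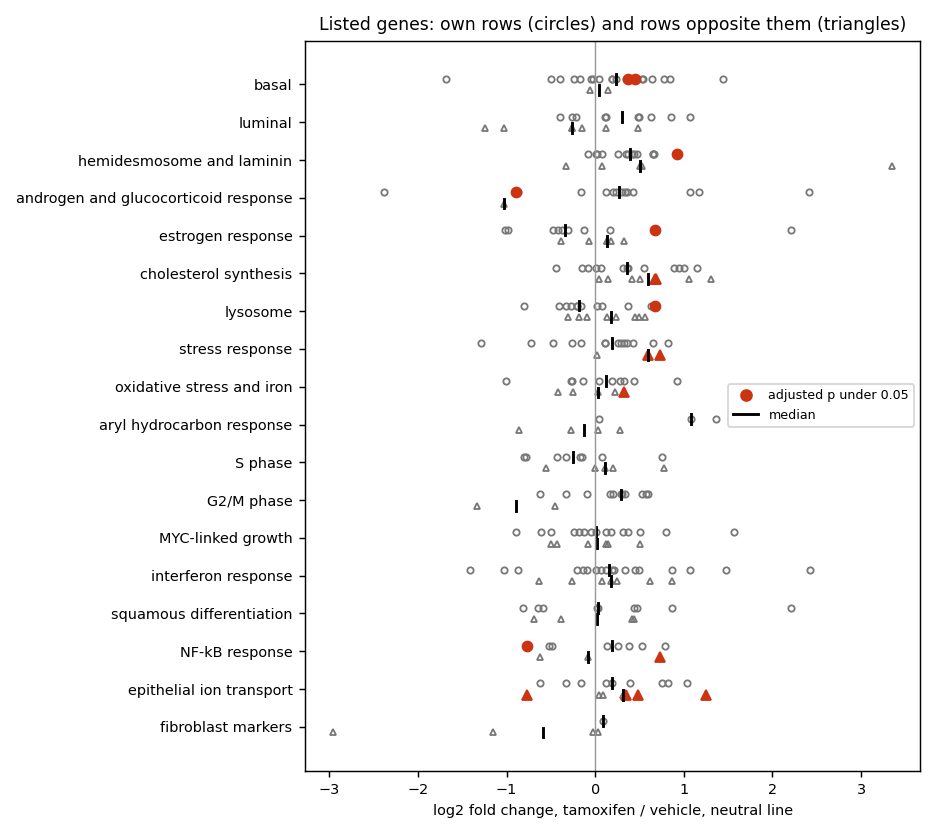
Log2 fold change of tamoxifen over vehicle in the neutral line for each tested gene of the lists (circles) and each tested row opposite a listed gene (triangles), with calls in red and list medians as bars. All 8 rows opposite cholesterol genes and 13 of 14 hemidesmosome and laminin genes lie above 0.

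Several low rows moved far but had no adjusted p, as their means lay under the limit of the independent filtering. There were 14 such genes whose unadjusted p was at or under 0.00189, the largest p among the 45. Those named here were chosen after their values were seen. PCSK7, a proprotein convertase gene that lies opposite a gene with no symbol and also overlaps TAGLN, had 128, 95.6 and 101 normalized counts with vehicle and 22.2, 39.0 and 21.4 with tamoxifen. Every tamoxifen library held far fewer counts than the lowest vehicle library (log2 fold change -1.98, SE 0.30, unadjusted p = 4.07e-11). Its adjusted p was 2.68e-05 in edgeR, 3.81e-05 in limma-voom and 5.92e-08 in DESeq2 without that filter, and 4 of the 6 fits that left out 1 library called it. In the repressive line it stood at a log2 change of 0.29 (adjusted p = 0.701) and in the activating line at -1.07 (adjusted p = 0.00590). SCD, the stearoyl-CoA desaturase and a target of the sterol-sensing factors, had 16.7, 21.0 and 19.7 normalized counts with vehicle and 61.7, 40.9 and 50.9 with tamoxifen (log2 fold change 1.42, SE 0.35), with an adjusted p of 0.0315 in edgeR and 0.146 in limma-voom. RP11-597D13.9, opposite GASK1B, had 22.9, 18.2 and 14.8 normalized counts with vehicle and 2.89, 3.90 and 3.05 with tamoxifen. Its adjusted p was 0.0331 in DESeq2 without the filter, but 0.0564 in edgeR and 0.262 in limma-voom. MT-ND6, which kept an adjusted p, had 2584, 4489.7 and 2289 normalized counts with vehicle and 5802, 5528 and 4984 with tamoxifen, and the spread of the vehicle libraries was wide (log2 fold change 0.80, SE 0.33, adjusted p = 0.182).

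The share of changed rows with a gene on the opposite strand was near that of all rows that could be called. Of the 45, 40 were placed on the annotation and 33 of these had such a gene (82.5%), beside 87.6% of all placed genes with an adjusted p. In 32 of the 33 the row held more counts than the row of the opposite gene, CTSD being the exception. The row of the opposite gene was tested for 24 of them, and 0 of the 24 passed in the DESeq2 test. When the genes with no opposite gene were tested alone, 0 of 1807 passed in DESeq2, among them the 7 of the 45 that have none (KRT5, KRT14, ITGB4, USP24, CEBPD, PCDHA11 and SH3PXD2A), and 108 had an unadjusted p under 0.05.

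The repressive and activating lines, which share no library with the neutral line, were used to see whether the same rows changed there. Their tests used the same dispersion for each gene as the test of the neutral line. In the repressive line, where 9.65% of tested genes were called, 5.62% higher and 4.02% lower, 14 of the 19 rows that rose in the neutral line rose and none fell, and 12 of the 26 that fell also fell and 2 rose. In the activating line, where 2.8% were called, 1.34% higher and 1.46% lower, 10 of the 19 rose and 2 fell, and 8 of the 26 fell and 1 rose. In all 3 lines 8 rows rose, among them TBPL1, USP24, CTD-2636A23.2, RUSC1-AS1, RP11-192H23.5, Z98256.1 and TREH, and 3 fell, namely RP11-421F16.3, RP11-229P13.23 and EIF2AK1. These include the rows opposite FDPS, HMGCS1 and SLC2A12.

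**Figure D4:**
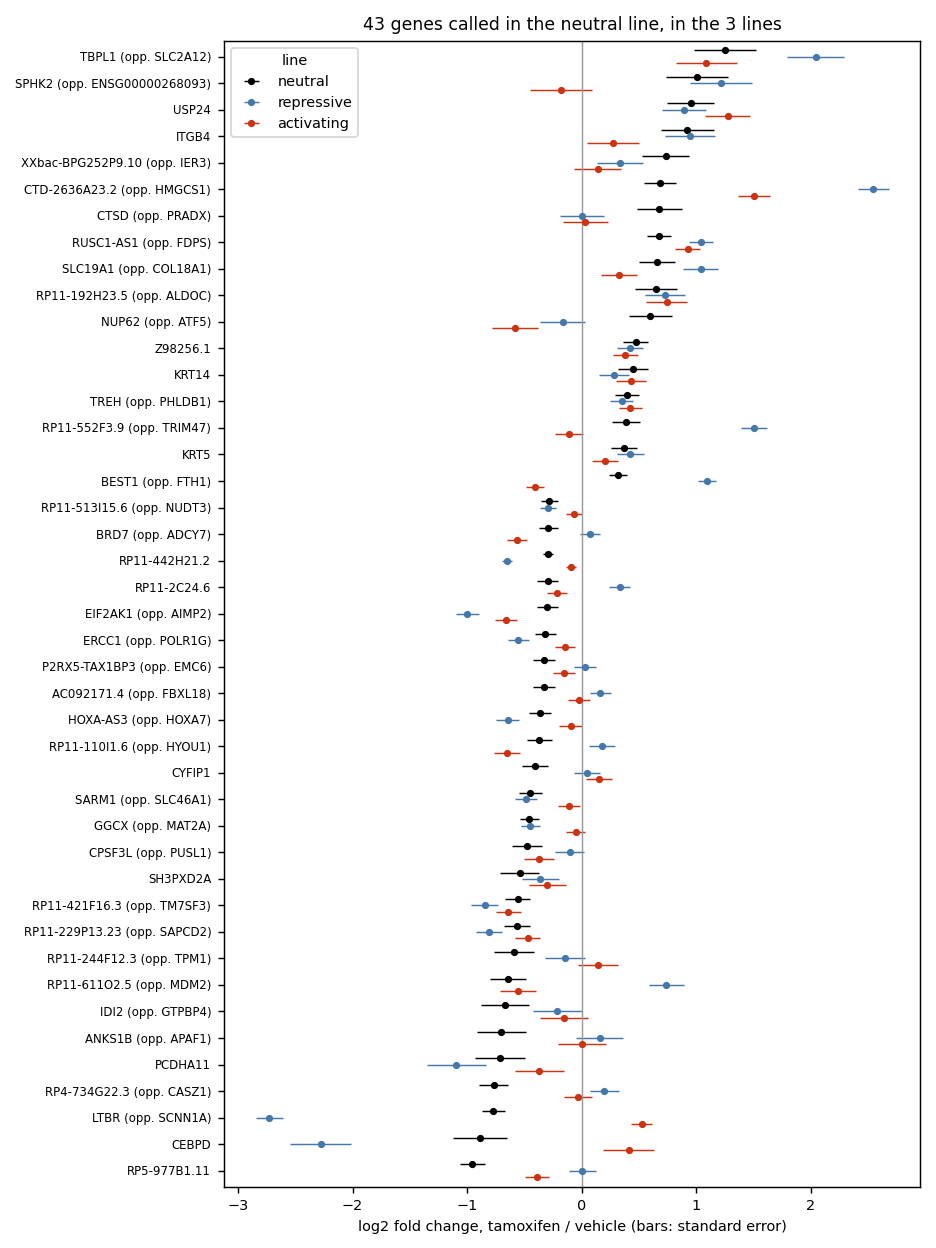
Log2 fold change of tamoxifen over vehicle with its standard error for 43 of the 45 genes called in the neutral line (black), in the repressive line (blue) and in the activating line (red). RUSC1-AS1, USP24 and TREH lie close together in the 3 lines, whereas LTBR, CEBPD and CTD-2636A23.2 lie far apart.

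For some of the 45 the size of the effect differed between lines. The interactions use the neutral libraries again, so their values are given beside the others and are not independent of them. The difference of the effects, repressive minus neutral, passed for 14 of the 45, 10 positive and 4 negative. Among all 5816 tested genes it passed for 224 (3.85%), 136 positive (2.34%) and 88 negative (1.51%). Activating minus neutral passed for 11 of the 45, 9 positive and 2 negative. Among all tested genes it passed for 36 (0.619%), 21 positive (0.361%) and 15 negative (0.258%). CTD-2636A23.2, opposite HMGCS1, rose by 2.55 (SE 0.13, adjusted p = 1.58e-77) on the log2 scale in the repressive line and by 1.51 (SE 0.14, adjusted p = 1.15e-24) in the activating line. Its effect in the neutral line was smaller than in both, by differences of 1.86 (SE 0.19, adjusted p = 1.31e-19) and 0.82 (SE 0.19, adjusted p = 0.00351). LTBR, opposite SCNN1A, showed a log2 change of -2.73 (SE 0.12, adjusted p = 3.08e-109) in the repressive line and of 0.53 (SE 0.09, adjusted p = 9.95e-07) in the activating line. Both differed from the neutral line, by -1.95 (SE 0.16, adjusted p = 1.41e-32) and 1.30 (SE 0.14, adjusted p = 1.04e-18), and the neutral value lay between them. CEBPD showed a log2 change of -2.28 (SE 0.26, adjusted p = 1.21e-15) in the repressive line and 0.41 (SE 0.22, adjusted p = 0.288) in the activating line, with differences of -1.39 (SE 0.35, adjusted p = 0.00310) and 1.30 (SE 0.33, adjusted p = 0.00658). BEST1, opposite FTH1, showed a log2 change of 1.1 (SE 0.08, adjusted p = 3.54e-42) in the repressive line and -0.40 (SE 0.08, adjusted p = 1.38e-05) in the activating line, again with the neutral value between them. For RUSC1-AS1, opposite FDPS, the differences of 0.37 (SE 0.15, adjusted p = 0.121) and 0.25 (SE 0.15, adjusted p = 0.492) did not pass, and for USP24 they were -0.06 (SE 0.28, adjusted p = 0.95) and 0.32 (SE 0.28, adjusted p = 0.693).

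Of the 45, 10 were called in the neutral line and in neither other line, and for most of these the difference itself did not pass. RP4-734G22.3, opposite CASZ1, differed from both lines, with log2 fold changes of 0.20 (SE 0.13, adjusted p = 0.381) in the repressive and -0.03 (SE 0.12, adjusted p = 0.918) in the activating line and differences of 0.96 (SE 0.18, adjusted p = 6.27e-06) and 0.73 (SE 0.18, adjusted p = 0.00391). AC092171.4, opposite FBXL18, differed from the repressive line by 0.49 (SE 0.13, adjusted p = 0.00593) and CYFIP1 from the activating line by 0.56 (SE 0.16, adjusted p = 0.0257). For CTSD, SH3PXD2A, ANKS1B, IDI2, P2RX5-TAX1BP3, RP11-244F12.3 and XXbac-BPG252P9.10 neither difference passed. RP5-977B1.11, which fell most among the 45 called genes, was called in the activating line too, at -0.39 (SE 0.11, adjusted p = 0.00679), and stood at 0.01 (SE 0.12, adjusted p = 0.980) in the repressive line.

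The number of calls depended on the setting. The 22 calls of edgeR's quasi-likelihood test included 19 of the 45, and the 18 of limma-voom included 17. Leaving out 1 library gave 25 to 36 calls, the lowest without tamoxifen replicate 3 and the next, 27, without tamoxifen replicate 1. Of the 45, 12 were called in edgeR, with a replicate block and in all 6 fits that left out 1 library. Of these 4 rose, among them USP24, CTD-2636A23.2 and RUSC1-AS1, and the 8 that fell were LTBR, RP5-977B1.11, RP4-734G22.3, GGCX, SARM1, RP11-421F16.3, RP11-229P13.23 and RP11-442H21.2. No sign was reversed at any of the 45 under the alternatives.

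**Figure D5:**
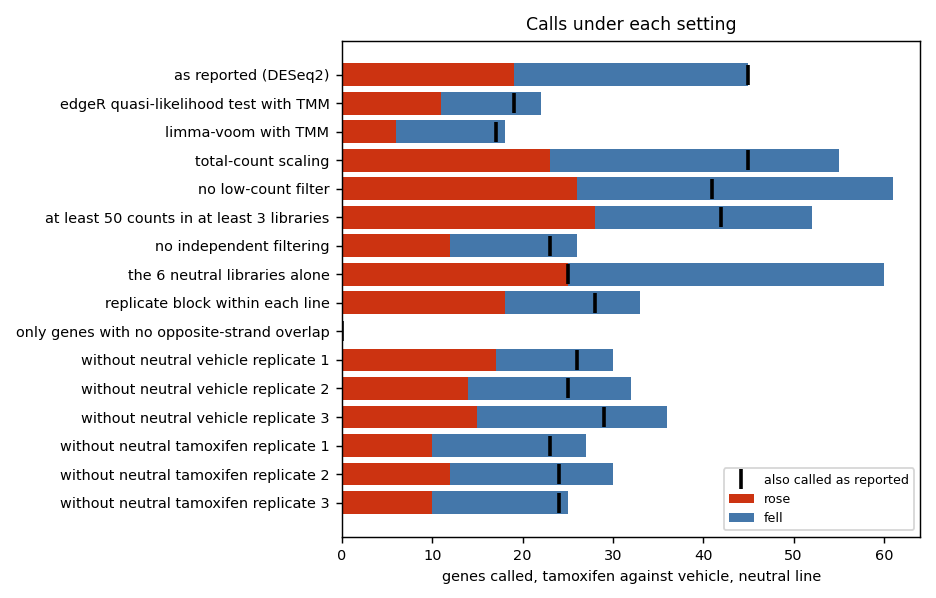
Genes called in the neutral line under each setting (bar length), split into those that rose (red) and fell (blue), with a black mark at the number also called as reported. Counts run from 0 for the genes with no opposite gene to 61 without a filter on low counts, against 45 as reported.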

How the data were processed

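RNA-seq was analysed for the neutral line (3 vehicle and 3 tamoxifen libraries), grouped by the labels. The authors prepared libraries with a stranded mRNA kit and quantified them with salmon 1.9.0 in an nf-core workflow with the GRCh37 genome option, and the submitters' notes name DESeq2 1.28.0. The deposited table holds expected counts (salmon's estimated reads per gene, not scaled for depth or length), of which 1.1% were not whole, and they were rounded. A gene was tested where 3 or more of the 18 libraries had 10 or more counts (5816 of 57773). Wald tests were made with DESeq2 1.42.0 in R 4.3.3 on a model of the 6 group means over the 18 libraries, after scaling by the median of ratios. Independent filtering was on, and genes were called at a Benjamini-Hochberg adjusted p under 0.05. Log2 fold changes are unshrunken, with standard errors. Group values are normalized counts. Lines were compared by interaction terms. The model was tested on simulated data.

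Gene positions and strand overlaps came from the GENCODE annotation on GRCh37, matched by identifier, and promoters from RefSeq. Depth was 713521 to 769051 counts per library. No pair of replicates was as alike as sampling noise allows, as chi-square per degree of freedom was 2.94 to 3.20.

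The naming rule took up to 15 genes that rose and 15 that fell by size of log2 fold change among those called with a mean of at least 20 normalized counts, every called member of 21 gene lists (426 genes) or row opposite one, the genes of the construct, up to 4 of the highest other members per list, and 3 genes on each side of the threshold. The members and lists were chosen with earlier results of these data known, so list counts are descriptions with no test. The samples were not treated as paired by replicate number. Same-numbered vehicle and tamoxifen libraries of the neutral line had correlations of deviations of -0.046, -0.16 and 0.0042. With 3 libraries per group these values cannot exclude a pairing. Alternatives were edgeR 4.0.16 and limma-voom (limma 3.58.1) with TMM, total-count scaling, other filters on low counts, no independent filtering, the 6 libraries alone, a replicate block, genes with no opposite-strand overlap only, an absolute log2 fold change above 1, and each library left out. Some genes and rows, counted in all totals, are not reported here.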

Additional observations from a re-analysis of the deposited data

Results flagged for a closer look

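Genes called in the neutral line that are listed below had a tamoxifen effect that differed between lines by the interaction term (DESeq2 adjusted p under 0.05). Values are differences of log2 fold changes, the other line minus the neutral line. Against the repressive line the difference was positive for CTD-2636A23.2 (1.86), RP11-552F3.9 (1.12), BEST1 (0.78), BRD7 (0.36), RP11-2C24.6 (0.63), AC092171.4 (0.49), RP11-110I1.6 (0.55), RP11-611O2.5 (1.38), RP4-734G22.3 (0.96) and RP5-977B1.11 (0.96), and negative for RP11-442H21.2 (-0.36), EIF2AK1 (-0.7), LTBR (-1.95) and CEBPD (-1.39). Against the activating line it was positive for CTD-2636A23.2 (0.82), RP11-442H21.2 (0.2), CYFIP1 (0.56), GGCX (0.4), RP4-734G22.3 (0.73), LTBR (1.3), CEBPD (1.3) and RP5-977B1.11 (0.56), and negative for NUP62 (-1.18) and BEST1 (-0.72). CTD-2636A23.2, RP4-734G22.3 and RP5-977B1.11 differed in the same direction from both lines, while LTBR, CEBPD, BEST1 and RP11-442H21.2 differed in opposite directions.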

How the results depend on the processing

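Against 45 calls as reported, edgeR gave 22, limma-voom 18, DESeq2 without independent filtering 26, the genes with no opposite-strand overlap 0 (108 at an unadjusted p under 0.05) and an absolute log2 fold change above 1 left 2. Total-count scaling (55), no filter on low counts (61), at least 50 counts (52) and the 6 neutral libraries alone (60, of which 25 were among the 45) stayed within 1.5 times. With edgeR, calls among the own rows of listed genes went from 6 to 2, calls made the same way in the repressive line from 26 to 16 and in the activating line from 18 to 11, and differences between the activating and neutral lines from 36 to 17. Leaving out 1 library gave 25 to 36 calls, 2 to 4 own rows of listed genes and 17 to 23 calls made the same way in the repressive line. Between 16 and 22 of the 45 calls were lost at each such fit and no sign was reversed. The cause of these shifts was not tested.

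With a replicate block there were 33 calls, 28 of them among the 45, and 17 were lost. Whether equal replicate numbers mark paired libraries is not known here, and the cause of the lost calls was not tested.

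Independent filtering gave an adjusted p to 1193 of 5816 genes, and the SE was larger at low counts. Each group holds 3 libraries of 1 selected pool, the dose is given with 2 values, and row and opposite gene cannot be told apart.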
